A study of Homo sapiens with 7 samples.

Results

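The genes of the cytosolic ribosome were followed in HCT116 cells, a human colorectal carcinoma line, that carry a DROSHA knockout and received either a control miRNA or miR-148a-3p by transfection, with 3 libraries in each group. All 6 libraries share the knockout. DROSHA starts the processing of most microRNAs, so the transfected microRNA acts in cells that make few of their own. RNA came from cells 48 h past transfection. The 3' kit took 500 ng of it with an oligo-dT primer, so a read counts the 3' end of a transcript and does not scale with its length. The labels do not say whether the knockout line is a single clone, nor whether the replicates were separate cultures, and the p-values therefore measure the spread between libraries alone, possibly a technical one. Members were chosen by symbol: RPL or RPS followed by a number, with an optional letter and digit, together with RPLP0, RPLP1, RPLP2 and RPSA. Kinases of the RPS6K family and pseudogenes were left out. The rule took 82 of the 15659 gene symbols counted, 50 of the large and 32 of the small subunit. It takes in paralogs such as RPL22L1 and RPS27L. FAU, whose ribosomal protein is made as a fusion with a ubiquitin-like protein, lies outside it, as do RPL36AL and RACK1. Of the 82 members, 81 passed the filter on low counts; RPL3L, a paralog of RPL3 known from muscle, had 5 reads in all 6 libraries.

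A ribosome joins a small subunit, which reads the messenger RNA, with a large subunit, which forms peptide bonds, and each ribosomal protein is usually needed at a single copy. Growing tumour cells put a large part of their transcription and translation into these proteins. Their messenger RNAs typically begin with a C followed by a run of pyrimidines, the terminal oligopyrimidine (TOP) motif, through which mTOR signalling and LARP1 control their translation and stability.

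The transfected microRNA is shown first, in the form of its mature RefSeq sequence (GRCh38.p14, chr7:25949922-25949943, minus strand), with the seed, bases 2 to 8, in capitals.
hsa-miR-148a-3p: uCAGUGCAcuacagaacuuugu
The windows that follow show where transcription of 7 members starts in RefSeq; they were chosen because these members had the lowest p-values among those with a promoter sequence. Each holds 40 bases before and 20 bases from the annotated start, on the gene's strand, and the capitals mark a C followed by at least 4 bases that are each C or T and that begins within 5 bases of the start.
RPS27 (chr1:153990722-153990781, plus strand): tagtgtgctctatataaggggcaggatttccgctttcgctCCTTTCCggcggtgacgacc
RPL4 (chr15:66504836-66504895, minus strand): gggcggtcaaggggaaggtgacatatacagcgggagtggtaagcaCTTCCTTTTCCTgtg
RPS7 (chr2:3575220-3575279, plus strand): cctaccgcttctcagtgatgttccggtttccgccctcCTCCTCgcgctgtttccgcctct
RPL3 (chr22:39319604-39319663, minus strand): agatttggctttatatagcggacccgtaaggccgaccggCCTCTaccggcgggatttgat
RPS9 (chr19:54200818-54200877, plus strand): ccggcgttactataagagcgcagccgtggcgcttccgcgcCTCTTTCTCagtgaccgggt
RPS4X (chrX:72277229-72277288, minus strand): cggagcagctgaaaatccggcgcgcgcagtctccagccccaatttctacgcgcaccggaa
RPL22 (chr1:6199576-6199635, minus strand): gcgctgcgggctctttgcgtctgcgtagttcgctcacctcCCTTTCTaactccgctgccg

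Of the 66 members with a promoter sequence, 51 had such a run at the start, 77.3%, against 23.3% of the 7301 tested genes with a sequence. It was found in 32 of 41 large and 19 of 25 small subunit members. Other letters searched on both strands of the promoter sequences, from 250 bases before to 50 bases after the start, were CCGGAAG, the core bound by ETS factors, in 23 of the 66 members (34.8%, against 21.7% of tested genes), AAGATGG, a YY1 core, in 9 (13.6%, against 8.77%), GGGCGG, an SP1 core, in 35 (53%, against 73.6%), and TATAAA in 6 (9.09%, against 4.77%). A match is a description of the letters and no evidence of binding. The members lie on 21 chromosomes, with 12 on chromosome 19. Their spans are short, with a median of 5046 bp against 33236 bp for tested protein-coding genes, and 29 of the 82 hold at least 1 snoRNA within the span. Among these, RPL3, RPL4, RPL13A, RPL23A and RPL7A each hold 4.

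The libraries held 630142 to 1564125 counts over 12448 to 13849 genes. DROSHA had 31, 16 and 16 reads with the control and 20, 15 and 13 after miR-148a-3p, and because the deleted segment is not stated in the labels, these 3' reads check neither the knockout nor the labels. Of 14 markers of colon epithelium, 12 were counted and 8 passed the filter on low counts. They summed to 1574 to 2160 reads with the control and to 1078 to 2925 after miR-148a-3p. Much of this sum was KRT18, with 594 to 1757 reads, while KRT8 had 89 to 178, EPCAM 16 to 28 and CDX2 13 to 49. Of 13 blood markers, 3 were counted, at 3 to 8 and 1 to 11 reads in sum, with PTPRC at 0, and of 11 markers of fibroblasts and endothelium, 5 were counted, at 34 to 85 and 28 to 83 reads.

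Ribosomal protein messenger RNAs held a large and similar part of every library. The 82 members made up 10.7%, 11.7% and 11.5% of counts in control replicates 1, 2 and 3, and 12.3%, 10.7% and 11.8% in miR-148a-3p replicates 1, 2 and 3. The mean was 11.3% ± 0.540 with the control and 11.6% ± 0.821 after miR-148a-3p (SD, n = 3), and the groups overlapped. In bulk RNA, a lower content per cell and a smaller share of cells expressing a gene cannot be told apart. By CPM (counts scaled to a common library size, with TMM factors from the trimmed mean of M-values), the 3 highest members of the large subunit were RPL27A, RPLP1 and RPL30, and those of the small subunit RPS27A, RPS6 and RPS24. RPL27A, a large subunit protein, was measured at 6600 ± 660 CPM in control libraries and 6720 ± 742 CPM after miR-148a-3p. RPS6, the small subunit protein phosphorylated downstream of mTOR, was at 4135 ± 68.6 and 4229 ± 280 CPM.

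No member passed the threshold of an adjusted p of 0.05 between miR-148a-3p and control (edgeR, 0 of 81, where 0.0112% of all 8921 genes passed). DESeq2 and limma-voom also called 0 members, where 7 and 3 of the 8921 genes passed. The fitted log2 fold changes of 73 of 81 members lay within 0.5 of 0, as did those of 7456 of all 8921 genes. The highest was 0.48, for RPL7L1, and the lowest of a member named here was −1.02, for RPS2. At an unadjusted p below 0.05, 11 members had lower values after miR-148a-3p, 13.6% of those tested, where 3.4% of all genes had, and 2 had higher values, 2.47%, where 3.4% of all genes had. DESeq2 gave 11 lower and 4 higher members at that level, and limma-voom 11 and 5. The share over all genes was not counted for these fits. Among the 2178 genes of at least 100 CPM, which are measured more precisely, the edgeR shares were 4.82% lower and 4.45% higher. In 9 members every miR-148a-3p library lay below every control library (11.1%, background 6.59%), and in 6 every one lay above (7.41%, background 6.22%).

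Members were also counted by level. Of the 49 members over 1000 CPM, an unadjusted p below 0.05 was found for 1 with lower and 2 with higher values (median log2 fold change 0.05), where 4.31% of all genes at that level were lower and 6.03% higher. Of the 29 members from 100 to 1000 CPM, 9 were lower and 0 higher (median −0.13), where 4.85% of all genes were lower and 4.36% higher. Of the 3 below 100 CPM, 1 was lower and 0 higher, where 2.94% and 3.06% of all genes were. These level classes were set after the values were seen, and no test was run on them.

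**Figure D1:**
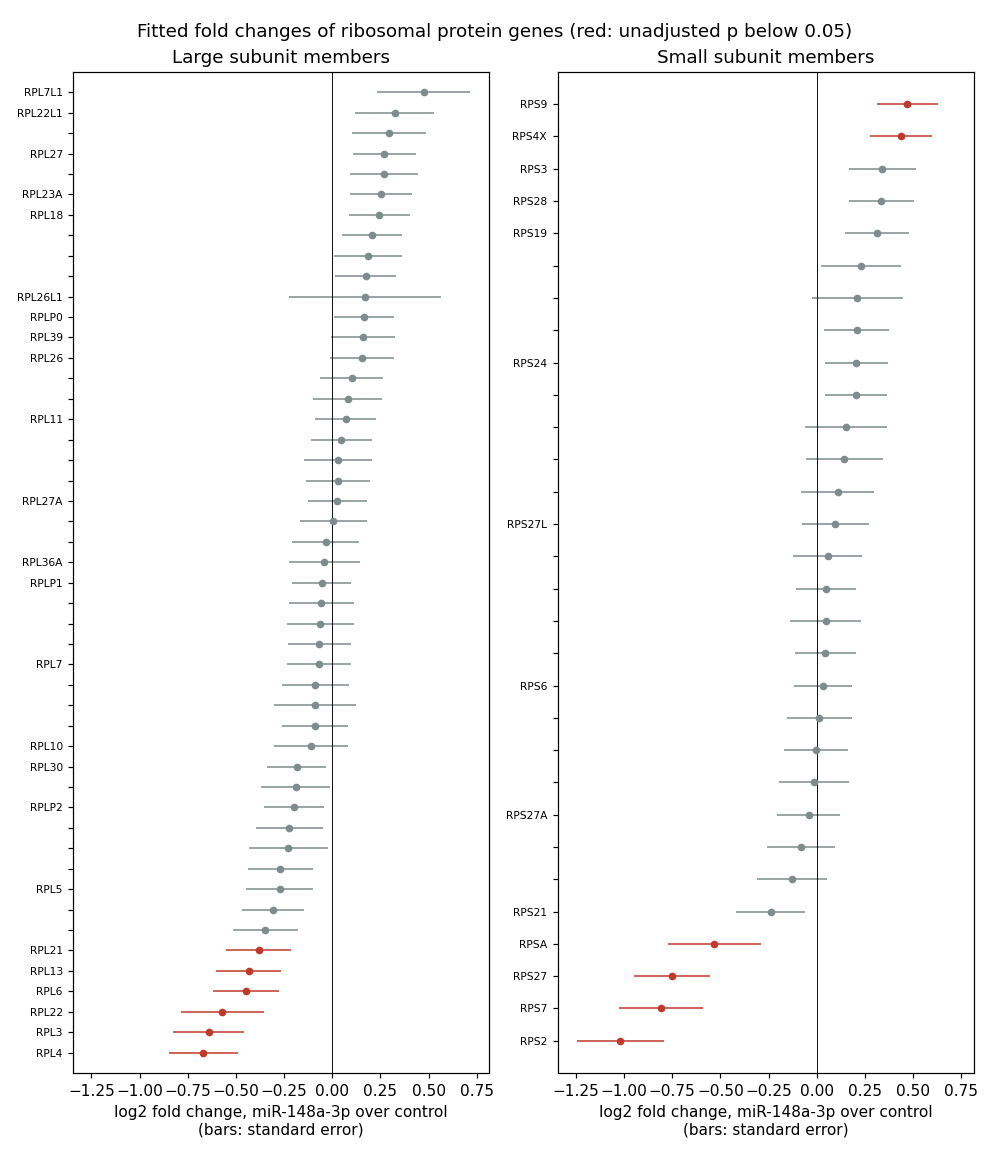
Fitted log2 fold change of 78 of the 81 tested members (horizontal axis, miR-148a-3p over control, bars are standard errors), with 48 large subunit genes on the left and 30 small subunit genes on the right; labels mark some of them. Red marks the 12 plotted members at an unadjusted p below 0.05, 10 of them to the left of 0.

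The small subunit gene with the smallest p was RPS2 (chromosome 16, 1962058 to 1964826), whose protein sits at the entry of the messenger RNA channel. It was counted at 540, 1105 and 1371 CPM in the 3 control libraries and at 537, 543 and 402 CPM after miR-148a-3p. Control replicate 1 lay at the level of the miR-148a-3p libraries, so the groups overlapped. The fitted difference came to −1.02 on the log2 scale (SE 0.23, edgeR adjusted p = 0.169). RPS7 (chromosome 2, 3575260 to 3580920), a protein that can also bind MDM2, had the same arrangement. It was at 229, 438 and 473 CPM in control libraries and 234, 228 and 183 CPM after miR-148a-3p, giving −0.81 on the log2 scale (SE 0.22, edgeR adjusted p = 0.322). RPS27 (chromosome 1, 153990762 to 153992155), a zinc finger protein of the small subunit, was at 275, 351 and 422 CPM and at 253, 185 and 178 CPM. Its groups did not overlap, and the fitted difference came to −0.75 on the log2 scale (SE 0.20, edgeR adjusted p = 0.322). RPSA, the laminin receptor precursor that also serves in the small subunit, was at 114, 177 and 208 CPM and at 79.8, 143 and 127 CPM, with overlap (−0.53, SE 0.24). Its value was −0.33 without control replicate 3 and −0.29 without miR-148a-3p replicate 1.

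On the large subunit side, RPL4, RPL3, RPL22 and RPL6 were lower in every miR-148a-3p library than in any control library. RPL4 (chromosome 15, 66498015 to 66504855), which lines the peptide exit tunnel, was at 512, 621 and 720 CPM in control libraries and 389.5, 433 and 339 CPM after miR-148a-3p. Its fitted difference came to −0.67 on the log2 scale (SE 0.18, edgeR adjusted p = 0.322). RPL3 (chromosome 22, 39312882 to 39319623), a protein near the peptidyl transferase centre, was at 286, 312 and 357 CPM and at 216, 195 and 199 CPM. Its fitted difference came to −0.64 on the log2 scale (SE 0.18, edgeR adjusted p = 0.328). RPL6 was at 532, 538 and 474 CPM and at 352, 368 and 417 CPM (−0.45, SE 0.17). RPL13 and RPL21, named after their values were seen, were also among the 11 lower members, at −0.43 (SE 0.17) and −0.38 (SE 0.17).

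Both members with higher values at an unadjusted p below 0.05 belong to the small subunit. RPS9 (chromosome 19, 54200858 to 54207647), needed for accurate decoding, was at 921, 893 and 870 CPM in control libraries and 1208, 1148 and 1365 CPM after miR-148a-3p. The groups did not overlap, and the fitted difference came to 0.47 on the log2 scale (SE 0.16, edgeR adjusted p = 0.504). RPS4X, the X-linked form of the small subunit protein S4 (chromosome X, 72272042 to 72277248), was at 1714, 2294 and 1947 CPM and at 2887, 2397 and 2774 CPM, also without overlap (0.44, SE 0.16, edgeR adjusted p = 0.593). RPL27 was at 1087 ± 166 and 1310 ± 61.6 CPM (SD, n = 3), higher in every miR-148a-3p library, and did not reach an unadjusted p of 0.05. RPS3, RPS28, RPL23A and RPL18 had values of 0.34, 0.34, 0.25 and 0.24 on the log2 scale, with SE from 0.16 to 0.17.

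**Figure D2:**
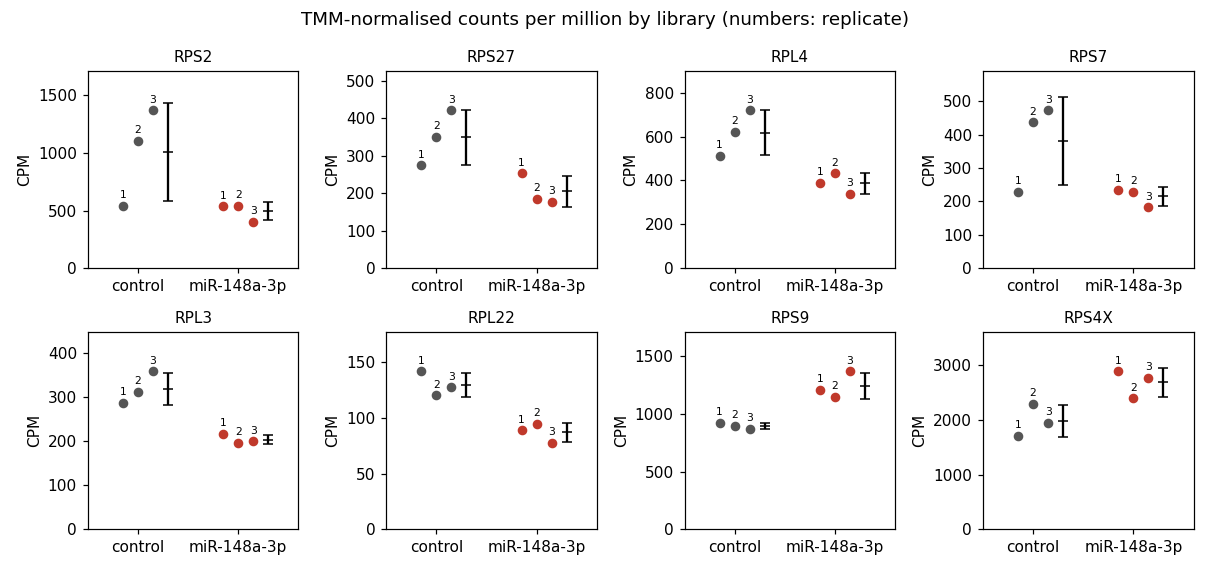
TMM-normalised CPM of 8 members in each library (vertical axis from 0, points labelled by replicate number, bars are mean and SD of 3 libraries). In RPS2 and RPS7, control replicate 1 lies at the level of the miR-148a-3p libraries, while in RPS27, RPL4, RPL3, RPL22, RPS9 and RPS4X the groups do not overlap.

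Several of these results rest on control replicate 1. With it left out, edgeR called 5 members, all lower after miR-148a-3p, where 0.279% of 9309 genes passed in either direction. Among them were RPS2 (log2 fold change −1.32, SE 0.16, edgeR adjusted p = 4.59e-08), RPS7 (−1.07, SE 0.18, adjusted p = 1.23e-04), RPS27 (−0.90, SE 0.18, adjusted p = 0.00684) and RPL4 (−0.79, SE 0.17, adjusted p = 0.00825). At an unadjusted p below 0.05 there were then 15 lower members (background 4.05%) and 7 higher ones (background 3.95%). Of the 11 lower members from all libraries, 10 were among the 15, RPL13 being the exception. Control replicate 1 was more than 0.8 on the log2 scale below the other control libraries in 8 members, among them RPS13 (−1.44), RPS23 (−1.21) and RPS2 (−1.18), and above them in RPL36 (0.85). Of all members tested, 11.1% were apart by that much, where 14.5% of all genes tested were. Among members of at least 100 CPM the share was 10.3%, and among all genes at that level 6.8%. RPS13, RPS23 and RPL36 were named after their values were seen. RPS13, a small subunit protein, was at 303, 776 and 879 CPM in control libraries and 786, 653 and 825 CPM after miR-148a-3p. RPS23, which lies at the decoding centre, was at 846, 1951 and 1980 CPM and at 1902, 1740 and 1655 CPM. Which library is nearer to the state of control cells was not tested. Leaving out any other single library gave 0 called members.

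Large and small subunit genes were then set side by side. The median log2 fold change was −0.06 over the 49 large and 0.05 over the 32 small subunit members tested, and −0.0039 over all genes. Without miR-148a-3p replicate 2 the large subunit median turned to 0.0899, and the small one to 0.16. In the large subunit, 27 members had lower and 22 higher fitted values, and in the small subunit 11 and 21. Over all 8921 genes, 4504 had lower and 4417 higher fitted values. At an unadjusted p below 0.05 the large subunit had 7 lower (14.3%) and 0 higher members, and the small subunit 4 lower (12.5%) and 2 higher (6.25%), where 3.4% of all genes lay on either side. Of the 9 members lower without overlap, 8 were large subunit genes, among them the stalk gene RPLP2 and RPL13A, which was named after its values were seen, and RPS27 was the 1 of the small subunit. These are 16.3% of the large and 3.12% of the small subunit members, beside 6.59% of all genes. Higher without overlap were 3 large (6.12%) and 3 small subunit members (9.38%), beside 6.22% of all genes.

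Large subunit genes held 6.13%, 6.47% and 6.36% of counts in the control group and 6.60%, 5.81% and 6.26% after miR-148a-3p. Small subunit genes held 4.59%, 5.26% and 5.18% and then 5.69%, 4.87% and 5.52%. Each share overlapped between the groups, but their ratio did not. Large subunit reads per small subunit read came to 1.34, 1.23 and 1.23 with the control and to 1.16, 1.19 and 1.13 after miR-148a-3p, a mean of 1.26 ± 0.0621 against 1.16 ± 0.0310 (SD, n = 3). The difference in the log2 ratio was −0.121, and it was −0.0805 without control replicate 1, with the groups still apart. The groups also did not overlap with the reads of readthrough genes and pseudogenes added (−0.123), without RPL27A and RPS27A (−0.141) or as a difference of mean log2 CPM (−0.0966). All of these use the same 6 libraries. By mean log2 CPM the gap was narrow, between −0.457 in control replicate 2 and −0.482 in miR-148a-3p replicate 2. Control replicate 1 was at −0.309 on that measure. No p is given for this ratio, because it sums over genes chosen with earlier results known. Full separation of 3 against 3 libraries cannot give a permutation p below 0.1.

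**Figure D3:**
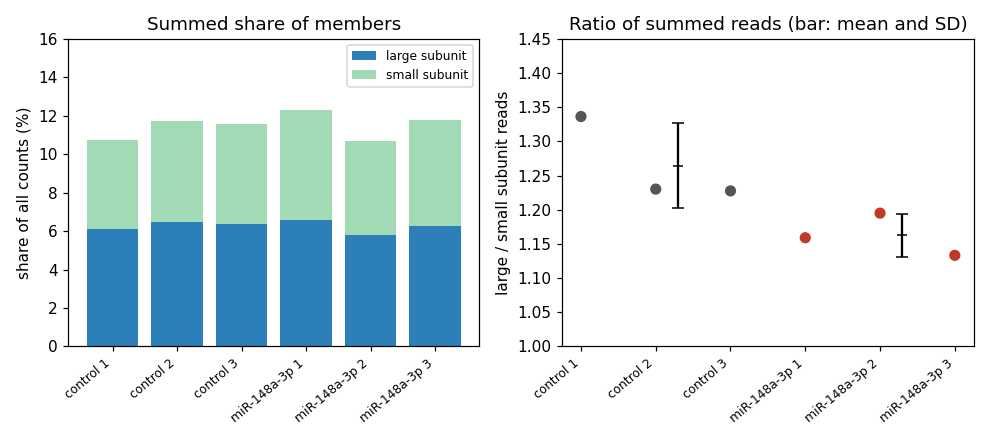
Left, percent of all counts held by large and small subunit members in each library (stacked bars from 0). Right, summed large over small subunit reads in each library (points, with mean and SD beside each group), between 1.23 and 1.34 with the control and between 1.13 and 1.19 after miR-148a-3p.

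Members also varied among libraries of the same group. In miR-148a-3p replicate 2, 61 of 81 members lay below their own mean over the 6 libraries, and in miR-148a-3p replicate 1, 57 lay above it. In control replicates 1, 2 and 3, 32, 50 and 40 members lay above their mean, and in miR-148a-3p replicate 3, 53 did. The median deviation of the small subunit was −0.16, 0.05 and −0.02 on the log2 scale in the control group and 0.17, −0.16 and 0.10 after miR-148a-3p. That of the large subunit was −0.03, 0.05 and −0.0018 and then 0.09, −0.18 and 0.05. Neither these counts nor these deviations were computed over all genes. Within a group, the median SD of a member of at least 100 CPM was 0.213 on the log2 scale, against 0.224 for all 2178 genes of at least 100 CPM. Single members ran from 0.0584 for RPS10 to 0.604 for RPS13. The sets differ in level, as 49 of these 78 members were over 1000 CPM, where 116 of the 2178 genes were.

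The paralogs were compared with their parent genes within each library. RPL22, an RNA-binding protein on the surface of the large subunit that is not essential in many cells, was at 142, 120 and 127 CPM in control libraries and 89.0, 94.6 and 77.4 CPM after miR-148a-3p. Its fitted difference came to −0.57 on the log2 scale (SE 0.22, edgeR adjusted p = 0.594), and the groups did not overlap. RPL22L1, its paralog, was at 167, 268 and 317 CPM and at 293, 315 and 334 CPM, with overlap (0.32, SE 0.20). Control replicate 1 lay at −0.80 from the other controls on the log2 scale, and the fitted value was 0.0929 without it and 0.53 without control replicate 3. Reads of RPL22L1 per read of RPL22 were 1.18, 2.23 and 2.49 in the control group and 3.29, 3.33 and 4.32 after miR-148a-3p, higher in each of the latter. RPS27L, a paralog of RPS27 induced by p53, was at 1090 ± 125 and 1167 ± 251 CPM (0.10, SE 0.17), and its ratio to RPS27 overlapped, at 4.37, 3.17 and 2.26 against 4.16, 5.38 and 8.19. RPL7L1, a nucleolar relative of RPL7, was at 82.8, 80.5 and 53.5 CPM and at 91.0, 97.0 and 117 CPM, without overlap (0.48, SE 0.24), from 47 to 138 reads. Its reads per read of RPL7 were 0.0592, 0.0624 and 0.0434 with the control and 0.0656, 0.0981 and 0.0857 after miR-148a-3p, also higher in each. RPL7 itself had −0.07 (SE 0.17). RPL26L1, with 11 to 52 reads a library, was at 0.17 (SE 0.39) and its parent RPL26 at 0.16 (SE 0.17). RPL39, RPL10 and RPL36A were at 0.16, −0.11 and −0.04 (SE 0.17 to 0.19), and RPL36AL at −0.05 (SE 0.19).

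**Figure D4:**
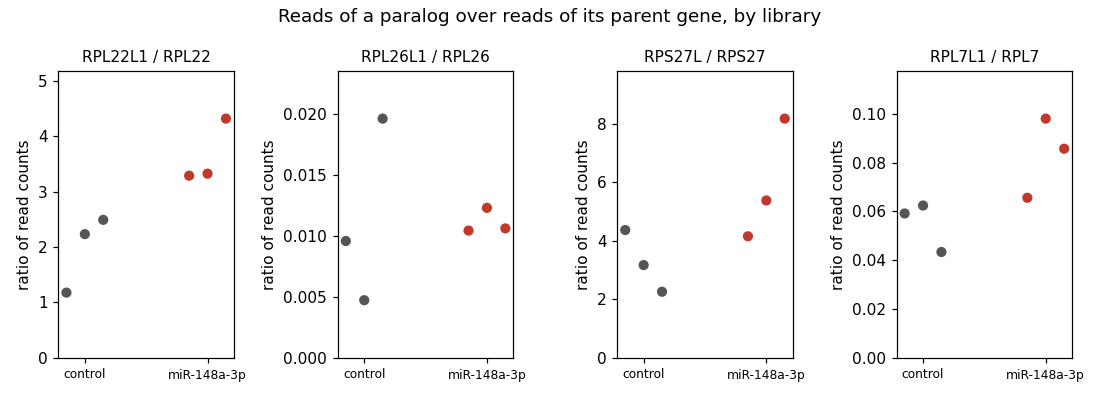
Reads of a paralog divided by reads of its parent gene in each library (vertical axis from 0, points are the 3 libraries of each group) for 4 pairs. The ratio of RPL22L1 to RPL22 is 1.18 to 2.49 with the control and 3.29 to 4.32 after miR-148a-3p, that of RPL7L1 to RPL7 is also higher in each miR-148a-3p library, and the RPS27L and RPL26L1 ratios overlap.

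The stalk members, RPL5, RPL11 and RPS19 did not pass either. RPLP0, RPLP1 and RPLP2 form the acidic stalk that recruits elongation factors. RPLP0 was at 2471 ± 103 and 2769 ± 379 CPM (0.17, SE 0.16) and RPLP1 at 3829 ± 137 and 3684 ± 480 CPM (−0.06, SE 0.16). RPLP2 was at 2036, 1947 and 1968 CPM and at 1882, 1606 and 1702 CPM, lower in every miR-148a-3p library by a small margin (−0.20, SE 0.16, edgeR adjusted p = 0.849). RPL5 and RPL11, which carry the 5S ribosomal RNA and can bind MDM2, were at −0.27 (SE 0.17) and 0.07 (SE 0.16). RPS19, often mutated in Diamond-Blackfan anaemia, was at 2379 ± 135 and 2959 ± 592 CPM (0.31, SE 0.17). Of the 17 tested p53 readout genes, 0 passed, 0 had an unadjusted p below 0.05, and the median was −0.02, with CDKN1A at 677 ± 25.2 and 558 ± 148 CPM.

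The ribosomal genes outside the rule gave values of the same size. FAU, the source of the small subunit protein S30, was at 984, 1071 and 1126 CPM in control libraries and 1414, 1323 and 1310 CPM after miR-148a-3p, higher in each library (0.35, SE 0.16, edgeR adjusted p = 0.725). RACK1, a scaffold on the small subunit, was at 1339 ± 90.3 and 1607 ± 84.3 CPM, again without overlap (0.26, SE 0.16). Reads of 3 readthrough genes made up at most 0.0319% of a library's counts. Among them RPL17-C18orf32 was at 187, 204 and 263 CPM and at 58.7, 84.0 and 145 CPM (−1.24, SE 0.25, edgeR adjusted p = 0.0933), while RPL17, the member it overlaps and also named after its values were seen, was at 260 ± 43.9 and 318 ± 57.9 CPM (0.30, SE 0.19). RPL17-C18orf32 was called without control replicate 1 (−1.36, SE 0.23, edgeR adjusted p = 1.85e-04). Its span (chromosome 18, 49481178 to 49492465) reaches beyond that of RPL17 (49488481 to 49492465). Which part of the span its 3' reads came from is not known, so its values need not reflect a ribosomal transcript. The 106 pseudogenes named after a member held 0.0363% to 0.0428% of counts. RPS2, RPL4, RPL3, RPS27 and RPS7 had 2 to 15 pseudogene reads beside 1491 to 4230 of their own. Other members had more: RPL22 had 79 beside 624, RPSA 56 beside 772 and RPL10 217 beside 2629. With pseudogene reads added, their fitted log2 differences were −0.69, −0.53 and −0.04. How reads that fit several loci were treated is not given in the sources used here.

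Related gene lists showed the following, beside 4504 lower and 4417 higher fitted values over all 8921 genes tested. Of 27 other TOP messenger RNAs, all tested, 19 had lower and 8 higher fitted values (median −0.11), 0 passed, and 4 had an unadjusted p below 0.05, all lower (14.8%, background 3.4%). EEF1A1, the elongation factor that delivers aminoacyl-tRNA, was at 998, 1131 and 1128 CPM and at 847, 828 and 761 CPM (−0.42, SE 0.16, edgeR adjusted p = 0.616). EEF1G was at −0.43 (SE 0.18), EIF3E at −0.46 (SE 0.18) and EIF4B, named after its values were seen, at −0.38 (SE 0.18). Regulators of TOP translation had a median of −0.04 over 15 tested genes, with 0 at an unadjusted p below 0.05, and LARP1B at −0.34 (SE 0.23). Of 84 tested ribosome biogenesis genes, 39 had lower and 45 higher values (median 0.02), and 0 passed. An unadjusted p below 0.05 was found for 3 with lower (3.57%) and 6 with higher values (7.14%), beside 3.4% of all genes on either side. PES1, of the complex that matures the large subunit precursor, was at 32.7, 40.8 and 26.2 CPM and at 57.3, 61.5 and 105 CPM (1.13, SE 0.30, edgeR adjusted p = 0.322). RRN3, which recruits RNA polymerase I, was at 34.7, 42.0 and 63.7 CPM and at 15.2, 24.8 and 24.7 CPM (−1.16, SE 0.35, edgeR adjusted p = 0.398). Of the mitochondrial ribosomal protein genes, 77 were tested, and 29 had lower and 48 higher values (median 0.15). At an unadjusted p below 0.05 there were 0 lower and 4 higher (5.19%), beside 3.4% of all genes on either side. The difference between these lists was not tested.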

How the data were processed

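For each mRNA library the deposited values are raw counts per gene, and a gene missing from a list was taken as 0. The submitters' processing notes name cutadapt, STAR, Bowtie2 and GRCh38. Their roles and versions, the counter, the annotation and strand handling were not given in the sources used here. Small RNA counts were left out. Some members entered every fit, sum and count but are not reported here by name. The count test was edgeR's quasi-likelihood test (edgeR 4.0.16, R 4.3.3; TMM, filterByExpr, 8921 genes, group as single term), with Benjamini-Hochberg adjustment over all genes. SE was taken from the test statistic. The pipeline was tested on 5 simulated data sets. Alternatives used limma 3.58.1 and DESeq2 1.42.0, other scalings and filters, a replicate block, added readthrough or pseudogene reads, and each library left out. With 3 against 3 libraries, a permutation test cannot go below 0.1, so none was run. Named members were, per subunit, the 5 smallest p in each direction and the 3 highest levels, plus the stalk, paralog pairs, RPL5, RPL11, RPS6 and RPS19; from related lists, up to 3 genes. Members and lists were chosen with earlier results of these data known. Sequences and coordinates are RefSeq, GRCh38.p14; all 82 symbols matched, 66 with a promoter.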

Additional observations from a re-analysis of the deposited data

How the results depend on the processing

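The count of 0 called members was the same under each alternative except without the count filter and on leaving out 1 library. Without the filter 3 members were called, RPS2 and RPS7 among them, where 18 of all 15659 genes passed. With 1 library left out the count was 0 to 5, the 5 without control replicate 1, where 26 of 9309 genes passed. Members lower at an unadjusted p below 0.05 numbered 11 or 12 under each other alternative and 8 to 15 with 1 library left out. The higher members, 2 in all libraries, became 4 with library totals only, 4 with the DESeq2 test, 5 with limma-voom, 4 with the replicate block and 2 to 7 with 1 library left out (7 without control replicate 1 or miR-148a-3p replicate 2). Shares over all genes at that level were 4.05% lower and 3.95% higher without control replicate 1. They were not counted for the other alternatives. Deviations of libraries with the same number correlated at 0.133, 0.0930 and −0.00185, so the numbers were not taken as pairs. With the replicate block 0 members were called, and 11 were lower. The large subunit median ran from −0.13 to 0.0899 with 1 library left out, changing sign without miR-148a-3p replicate 2, and the small subunit median from 0.03 to 0.16. Values near 0 changed sign on leaving out 1 library: RPLP1 (−0.13 to 0.0486), RPS6 (−0.0193 to 0.0758), RPL27A (−0.0442 to 0.11), RPS27A (−0.13 to 0.12), RPL26 (−0.0073 to 0.28), RPL7 (−0.16 to 0.0744), RPL10 (−0.31 to 0.14), RPL36A (−0.21 to 0.11), RPL26L1 (−0.15 to 0.81) and RPS27L (−0.0900 to 0.20). Others kept their sign but moved by a large factor: RPSA (−0.76 to −0.29), RPL22L1 (0.0929 to 0.53), RPS3 (0.16 to 0.54), RPL5 (−0.42 to −0.16), RPLP0 (0.0532 to 0.25), RPL11 (0.0217 to 0.16), RPL39 (0.0667 to 0.32), RPL27 (0.16 to 0.38), RPL23A (0.15 to 0.36), RPS19 (0.21 to 0.47) and RPL7L1 (0.30 to 0.58). The cause was not tested. Depth limits RPL26L1, with as few as 11 reads in a library. For the subunit ratio, the alternatives without RPL27A and RPS27A and by mean log2 CPM were chosen after seeing the data.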

Other observations

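The pyrimidine run at the start was present in 7 of the 9 lower members with a promoter sequence, in 1 of the 2 higher ones and in 43 of the other 55. This grouping was made after the values were seen, and no test was run on it.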
